A study of Mus musculus with 12 samples.

Results

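Visceral white adipose tissue of mice that carried a heart-specific TGF-b1 transgene and ate a high-fat diet was compared with that of mice that had neither factor, and the combined effect was set beside the sum of the transgene's and the diet's separate effects. Every gene of the deposited count tables belongs to the comparison, and 16550 of the 50559 genes listed had enough reads to be tested. The mice were of the FVB/N strain. The transgenic high-fat group combined 2 alleles, a tTA driver under the cardiac alphaMHC promoter and an alphaMHC TGFb transgene, with a diet that supplied 60% of its energy as fat (5.21 kcal/g). The wild-type high-fat group carried the driver alone and ate the same diet. The transgenic control group carried both alleles and ate control chow with 17% of energy from fat (3.1 kcal/g). The wild-type control group, the baseline, carried the driver alone and ate that chow. All 4 groups therefore share the tTA driver, and the TGFb transgene is driven in heart muscle, not in fat. The labels list an age of 8 to 10 weeks for all 4 groups. High-fat feeding started at that age and lasted either 2 or 6 weeks, and the labels do not tie a duration to a library. Age at collection was not among the values used here, so a match in age between the diets was not checked. Each group had 3 libraries, and since no label says that these came from separate mice, the p-values measure the spread between libraries, which may be technical in part.

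White adipose tissue stores triglyceride in adipocytes and also holds progenitors, endothelium, macrophages and other immune cells, with a mesothelial layer on the surface of visceral depots. When a high-fat diet makes a depot grow, cells divide, the collagen matrix is rebuilt, macrophages and dendritic cells gather, and adipocytes make less fat from sugar because fat arrives in the food. TGF-b1 is secreted in a latent form that is held on cell surfaces or in the matrix until it is freed, and its receptors signal through Smad proteins.

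The 12 libraries held 20.1 to 21.3 M gene counts, and adipocyte genes such as Adipoq and Plin1 were abundant in all of them. The first principal component (28% of the variance) separated the diets. Some libraries stood apart: the summed level of 8 epithelial genes was highest in transgenic control replicate 2 (398 CPM) and wild-type control replicate 1 (95.7 CPM), against 12.7 to 43.0 CPM in the others, and the summed level of 15 muscle genes reached 969 CPM in transgenic control replicate 3 and 724 CPM in wild-type high-fat replicate 3, against 38.0 to 122.6 CPM in the others. CPM is a gene's count divided by the library's total in M, with totals scaled between libraries by TMM factors. In such bulk samples fewer cells of a type and less RNA per cell cannot be told apart.

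Both factors together changed 780 genes relative to baseline (4.71% of those tested; edgeR quasi-likelihood test, Benjamini-Hochberg adjusted p below 0.05). Of these, 430 rose (2.60%) and 350 fell (2.11%). The median size of change of a called gene was 0.92 on the log2 scale, and 348 changed by at least 1, while the median over all genes tested was -0.01. By limma-voom the count was 732 and by DESeq2 it was 1417. The diet alone changed 188 genes (1.14%), of which 113 rose (0.683%) and 75 fell (0.453%). By limma-voom the diet alone changed 699 genes and by DESeq2 868, so the distance between the counts for both factors and for the diet alone depended on the tool. The transgene alone changed 6 (0.0363%), of which 2 rose (0.0121%) and 4 fell (0.0242%). These comparisons share the baseline libraries, and both smaller counts rested on single libraries. The diet alone had 0 calls without wild-type high-fat replicate 2 and 2 without wild-type control replicate 1, with 9 to 17 without wild-type high-fat replicates 1 or 3 or wild-type control replicate 2. The transgene alone had 0 calls without transgenic control replicates 1 or 2, transgenic high-fat replicates 2 or 3, wild-type control replicate 2 or wild-type high-fat replicate 2, and 1 without transgenic high-fat or wild-type control replicate 1. It had 35 and 58 without transgenic control and wild-type control replicate 3. All 780 genes kept their direction in every refit that tested them, but the number called depended on single libraries. Leaving out wild-type control replicate 1 left 95 calls, transgenic high-fat replicate 3 left 162 and transgenic high-fat replicate 1 left 218. There were 387 calls without wild-type control replicate 2, 393 without its replicate 3, 505 without transgenic high-fat replicate 2, and 476 and 496 without wild-type high-fat replicates 2 and 3. Without the 2 libraries richest in epithelial genes 88 genes were called, 83 of them among the 780. In all 12 fits that left out 1 library 76 genes were called, 42 higher and 34 lower, and the accounts below lead with these where a group has any.

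**Figure D1:**
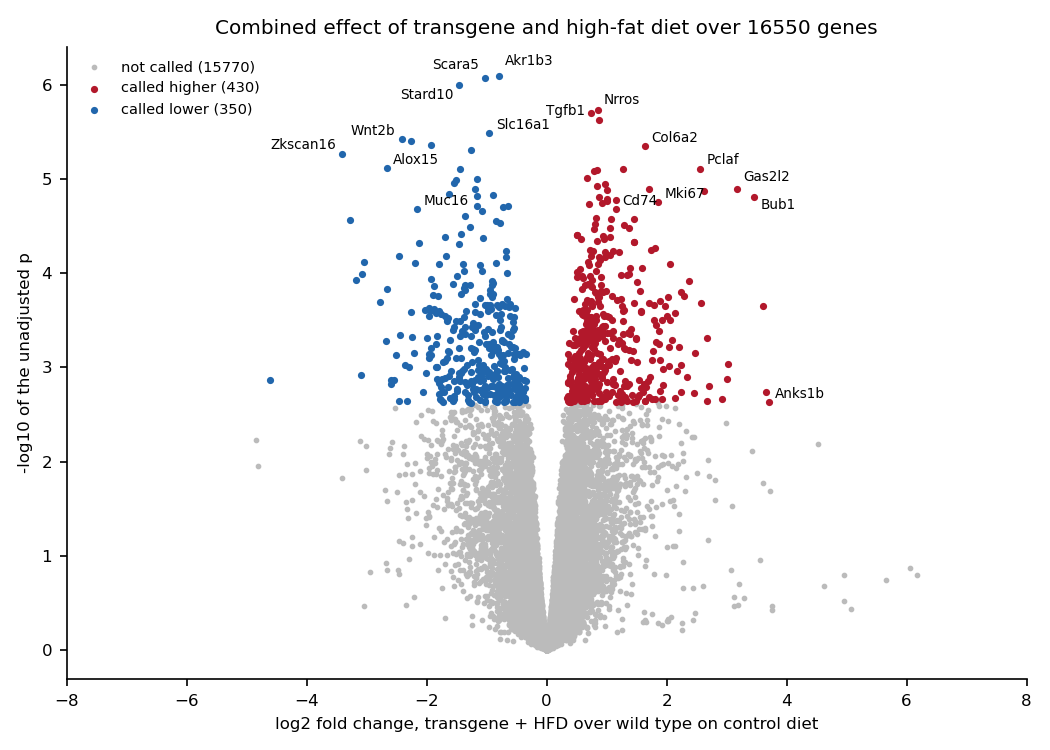
Each point is 1 of 16550 genes, with the log2 fold change of transgenic high-fat over wild-type control libraries on the x axis and -log10 of the unadjusted p on the y axis. The 430 genes called higher (red) and 350 called lower (blue) are marked, and the falls with the smallest p (Akr1b3, Scara5 and Stard10) stand slightly above the rises with the smallest p (Nrros and Tgfb1).

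Among the 8 genes with the smallest p, 3 rose and 5 fell, and all were called in each of the 12 fits without 1 library (adjusted p at most 0.033). Tgfb1 itself (chr7:25687002-25705077, GRCm38), which encodes the TGF-b1 ligand, was measured at 75.7, 75.0 and 82.3 CPM in the transgenic high-fat libraries, against 47.8, 45.7 and 46.2 CPM in wild-type controls. The groups did not overlap, and the increase was 1.67-fold (log2 0.74, SE 0.09, adjusted p = 0.00649). Of all genes tested, 13.1% lay above baseline without overlap in this way and 13.1% below. With the diet alone Tgfb1 was 0.52 higher (adjusted p = 0.0244) and with the transgene alone 0.28 higher, which did not pass (adjusted p = 0.274). The call with the diet alone was lost without wild-type high-fat replicate 2, as were all calls of the diet alone. The single changes sum to 0.80, so the departure was -0.07 with a 95% interval of -0.35 to 0.22. The counts cannot tell RNA of the adipose gene from any RNA of the transgene, and a heart-driven transgene is not checked by its level in fat.

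Nrros (chr16:32142785-32165594), which tethers latent TGF-b1 to the surface of macrophages and related cells, had 39.8, 34.6 and 39.7 CPM in transgenic high-fat libraries and 22.6, 19.8 and 20.8 CPM in wild-type controls, a 1.81-fold increase (adjusted p = 0.00649). Its level in wild-type high-fat libraries, 33.2 to 39.0 CPM, lay in the same range, and that in transgenic controls, 19.3 to 21.3 CPM, lay at baseline. Fmnl3 (chr15:99317210-99370521), a formin that assembles actin filaments, was 1.84-fold higher, with 36.2, 35.5 and 32.9 CPM in transgenic high-fat libraries and 18.9, 18.5 and 19.4 CPM in wild-type controls (adjusted p = 0.00649).

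Akr1b3 (chr6:34303930-34317489), the mouse aldose reductase, had 125, 128 and 128 CPM in transgenic high-fat libraries and 225, 211 and 225 CPM in wild-type controls, so it was 1.74-fold lower (adjusted p = 0.00551). It stepped down group by group, at 147 to 154 CPM with the diet alone and 169 to 200 CPM with the transgene alone, and its departure from the sum was 0.01 (95% interval -0.27 to 0.30). Scara5 (chr14:65666403-65764826), a ferritin receptor, fell by 1.03 on the log2 scale, with 45.5, 52.5 and 46.3 CPM in transgenic high-fat libraries, against 100.5, 90.9 and 102 CPM in wild-type controls (adjusted p = 0.00551). Stard10 (chr7:101317086-101346626), a phospholipid transfer protein, fell by 1.45, and its level with the diet alone, 14.8 to 19.4 CPM, was already that of both factors, 11.8 to 19.0 CPM. Slc16a1 (chr3:104638664-104658462), the lactate and ketone transporter MCT1, fell by 0.95 (adjusted p = 0.00677). Wnt2b (chr3:104944805-104961709), a Wnt ligand, fell furthest of these, by 2.42, with 8.44, 15.6 and 5.43 CPM in transgenic high-fat libraries and 58.3, 42.5 and 56.6 CPM in wild-type controls.

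**Figure D2:**
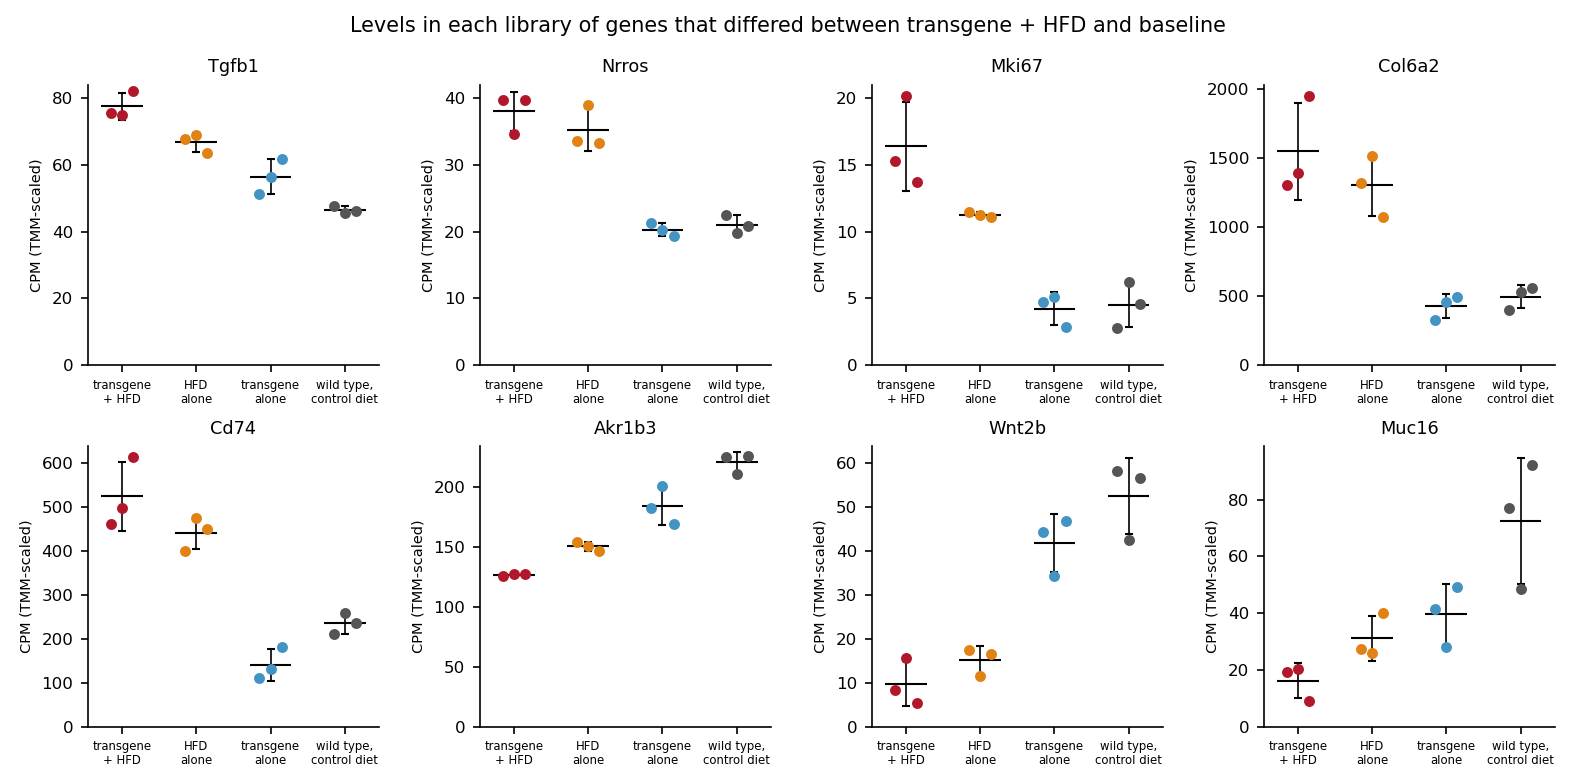
CPM of 8 genes in each library (points), with the group mean (line) and SD (bar), for transgene plus high-fat diet, diet alone, transgene alone and baseline from left to right. In all 8 genes the transgenic high-fat libraries do not overlap the baseline libraries, and the diet-alone libraries lie on the same side of baseline as those with both factors. Of all genes tested, 13.1% lay above baseline without overlap and 13.1% below.

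Many genes of cell division rose. Of 28 mitosis genes tested 14 rose and 0 fell, all 28 had a positive change, and the median change was 1.44. For DNA replication 10 of 26 rose and 0 fell, with a median of 0.52. The background was 2.60% of genes called higher. Their promoters are shown here because the genes moved together and because the known control sites of these genes are short sequences. In mitosis genes a CHR element (TTTGAA) and CCAAT boxes bind the complexes that switch the genes on before division. In replication genes E2F sites (searched as TTTCCCGC and TTTGGCGC) play that part. The sequences are from RefSeq (GRCm38.p6), cover up to 200 bases before the annotated start and 10 bases after the gene's first start, and carry in capitals each CHR, CCAAT or E2F match on either strand.
Mki67 (chr7:135716441-135716579, minus strand): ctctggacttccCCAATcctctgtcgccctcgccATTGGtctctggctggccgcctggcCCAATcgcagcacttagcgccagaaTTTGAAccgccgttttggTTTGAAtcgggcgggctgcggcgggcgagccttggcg
Bub1 (chr2:127831850-127832059, minus strand): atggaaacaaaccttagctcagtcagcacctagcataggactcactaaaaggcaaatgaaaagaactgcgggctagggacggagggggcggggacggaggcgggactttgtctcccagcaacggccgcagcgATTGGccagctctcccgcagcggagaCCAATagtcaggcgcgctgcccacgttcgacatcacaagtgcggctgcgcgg
Pclaf (chr9:65890123-65890332, plus strand): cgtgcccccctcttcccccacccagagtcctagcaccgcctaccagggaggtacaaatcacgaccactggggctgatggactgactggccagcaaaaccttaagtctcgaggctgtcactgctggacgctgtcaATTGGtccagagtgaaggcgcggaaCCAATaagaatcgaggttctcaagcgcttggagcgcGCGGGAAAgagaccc
Mcm5 (chr8:75109309-75109477, plus strand): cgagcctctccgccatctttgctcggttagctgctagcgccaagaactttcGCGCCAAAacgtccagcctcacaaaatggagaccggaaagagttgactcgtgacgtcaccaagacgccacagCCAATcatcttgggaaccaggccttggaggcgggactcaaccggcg
Mcm6 (chr1:128359696-128359905, minus strand): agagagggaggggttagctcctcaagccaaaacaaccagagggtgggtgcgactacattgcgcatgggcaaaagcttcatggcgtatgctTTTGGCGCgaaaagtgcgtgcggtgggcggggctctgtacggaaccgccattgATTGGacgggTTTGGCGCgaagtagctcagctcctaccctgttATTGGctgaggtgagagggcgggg

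TTTGAA was found on either strand of the 300 bases around the start in 18 of the 23 tested mitosis genes with a promoter in the table (78.3%), against 20.2% of the 27025 genes in it and 3 of 21 replication genes (14.3%). CCAAT was present in 78.3% of the mitosis genes and 66.7% of the replication genes, against 41.1% of all. An E2F match was present in 9 of 21 replication genes (42.9%) and 0 of 23 mitosis genes, against 1.80% of all. Among members called higher, TTTGAA was found in 8 of 11 mitosis genes (72.7%) and E2F in 3 of 9 replication genes (33.3%). CCAAT was found in 72.7% and 77.8% of them. The shares describe lists of known cell division genes, and a tie between the motifs and the changes was not tested. Mki67 carried 2 CHR matches and Bub1 none, while Pclaf and Mcm5 had 1 E2F match each and Mcm6 had 2. These are letter matches, not mapped binding sites, and no overlap occurred between the motifs in the 5 promoters shown.

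Mki67, the classic marker of cycling cells, had 15.3, 20.1 and 13.7 CPM in transgenic high-fat libraries, against 2.81, 6.20 and 4.58 CPM in wild-type controls. This is 3.62-fold (log2 1.86, SE 0.28, adjusted p = 0.00744). The wild-type high-fat libraries lay between, at 11.1 to 11.5 CPM, and the transgenic controls at 2.85 to 5.13 CPM overlapped baseline. Bub1, a spindle checkpoint kinase, was counted in 27, 38 and 16 reads in transgenic high-fat libraries and in 2, 3 and 2 reads in wild-type controls. The ratio of the summed reads was 11.6, with an exact 95% counting interval of 5.38 to 29.8 (adjusted p of the fit = 0.00734). Such an interval covers the counting of reads alone and leaves out the spread between libraries. Pclaf, a PCNA-binding factor, had 2.88, 3.21 and 2.04 CPM with both factors and 0.44, 0.61 and 0.32 CPM at baseline, a rise of 2.56 (adjusted p = 0.00722).

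Some subunits of the replicative helicase and some other replication genes rose as well. Mcm10 rose by 2.62, Mcm6 by 1.60 and Mcm5 by 1.39, and Uhrf1, which keeps DNA methylation through replication, rose by 1.71. Mcm5 was at 12.1, 9.45 and 9.27 CPM in transgenic high-fat libraries, against 4.65, 4.17 and 2.92 CPM in wild-type controls. Other subunits of the same complex did not pass: Mcm3 was at 0.46, Mcm4 at 0.07 and Mcm7 at -0.04, and Pcna was at -0.01. Mki67, Bub1, Pclaf, Mcm5, Mcm6, Mcm10 and Uhrf1 were called in each of the 12 fits without 1 library. Top2a (log2 2.06) and Ndc80 (1.80) were lost without wild-type control replicate 1 (adjusted p = 0.0535 and 0.0517), and E2f8 (2.24) also without transgenic high-fat replicate 1 (adjusted p up to 0.0679). Without wild-type control replicate 1, which had the lowest mitosis sum of all libraries (46.0 CPM), 2 mitosis genes were called, Mki67 and Bub1. The summed mitosis level was 153, 174 and 102 CPM with both factors, 100 to 111 CPM with the diet alone, 51.4 to 69.9 CPM with the transgene alone and 46.0 to 77.6 CPM at baseline.

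Many collagen chains rose with both factors. Of 23 collagen chains tested 10 rose and 3 fell, with a median of 0.67, against 2.60% of all genes called higher and 2.11% called lower. The summed level of the 23 chains was 10570, 10460 and 11980 CPM in transgenic high-fat libraries, against 5304, 6432 and 6795 CPM in wild-type controls. These sums did not overlap, and 13.1% of single genes tested also lay above baseline without overlap. The diet alone gave 9237 to 11510 CPM and the transgene alone 5126 to 6804 CPM. Col6a2 (chr10:76595756-76623630), a chain of collagen VI, had the largest rise of the 10, with 1303, 1394 and 1954 CPM with both factors and 401, 529 and 561 CPM at baseline, 3.12-fold (log2 1.64, SE 0.21, adjusted p = 0.00677). Col6a1, its partner chain in the same trimer, rose by 1.09 and Col5a3 by 1.5, while Col1a1, the main fibrillar chain, rose by 0.67 and Col8a1 by 0.98. Collagen I's second chain Col1a2 (0.29) and Col3a1 (0.76) did not pass. The 3 falls were Col4a5 (-0.98), Col6a5 (-1.12) and Col8a2 (-1.27).

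Col6a2 was called in each of the 12 fits without 1 library. Col8a1 was lost without only wild-type control replicate 1 (adjusted p = 0.0501), Col6a1 and Col5a3 without that library or transgenic high-fat replicate 3 (up to 0.0749), and Col1a1 without any 1 of the 6 libraries compared (up to 0.106). Without wild-type control replicate 1, Col6a2 was the 1 chain called higher and 0 were called lower. Of 30 other matrix genes 3 rose and 5 fell, against 2.60% of all genes called higher and 2.11% called lower. Timp4, an inhibitor of matrix proteases, fell by 2.2, with 38.3, 85.7 and 64.8 CPM against 415, 255 and 198 CPM at baseline, and Dcn, the proteoglycan decorin, fell by 0.94. The gelatinase Mmp9 fell by 1.37. Timp4 was lost without wild-type control replicate 1 or transgenic high-fat replicate 3 (highest adjusted p 0.0534), and Dcn and Mmp9 also without transgenic high-fat replicate 1 (up to 0.0642 for Dcn and 0.0819 for Mmp9). Exons of Timp4 overlap Syn2 on the other strand, and without a known strand setting their reads cannot be told apart.

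Genes of antigen presentation on MHC class II rose. Of 21 MHC class II and dendritic cell genes tested 7 rose and 0 fell, against 2.60% of all genes called higher. Their median change was 0.89, with 19 positive changes. Their summed level was 903, 1020 and 1254 CPM with both factors, against 470, 558 and 534 CPM at baseline. The diet alone lay at 827 to 968 CPM, and the transgene alone at 310 to 510 CPM, below every baseline library in 2 of its 3. Cd74, the invariant chain that escorts class II molecules, had 463, 498 and 614 CPM in transgenic high-fat libraries, against 211, 260 and 235 CPM in wild-type controls (2.23-fold, log2 1.16, SE 0.17, adjusted p = 0.0076). H2-DMa, which helps load peptide, rose by 0.88 and Ciita, the coactivator that switches class II genes on, by 1.45. Fscn1, an actin-bundling protein of mature dendritic cells, rose by 1.28, with 86.4, 142 and 132 CPM against 51.1, 50.7 and 46.6 CPM. These 4 were called in each of the 12 fits without 1 library. H2-Ab1 (log2 1) was lost without wild-type control replicate 1 or transgenic high-fat replicate 3 (highest adjusted p 0.0826), and H2-Aa (0.75) and H2-Eb1 (0.61) did not pass. Ciita shares exon sequence with Dexi on the other strand.

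Chemokines that recruit monocytes rose as well. Ccl2 had 13.5, 11.6 and 18.5 CPM with both factors, against 5.24, 3.15 and 4.58 CPM at baseline (3.35-fold, adjusted p = 0.0121), and Ccl7 had 9.5, 7.53 and 8.33 CPM against 2.47, 3.66 and 4.21 CPM (adjusted p = 0.0091). Both were called in each of the 12 fits without 1 library, and both were higher with the diet alone than with both factors in the means (log2 2.05 and 1.82, against 1.75 and 1.29), a difference that did not pass. Of 23 cytokines and chemokines 4 rose and 2 fell, against 2.60% of all genes called higher and 2.11% called lower. Cxcl1, which attracts neutrophils, rose by 1.98 and Il18 fell by 0.97, and each was lost without 4 single libraries: transgenic high-fat replicates 1 and 3, wild-type control replicate 1, and wild-type control replicate 2 for Cxcl1 or 3 for Il18 (adjusted p up to 0.0808 and 0.0761).

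Of 19 macrophage genes 2 rose and 0 fell, against 2.60% of all genes called higher, and the median was 0.38. The rises were Ccr2 (1.09), the receptor for Ccl2 and Ccl7, and Mpeg1 (0.99). The summed level was 1362, 1022 and 987 CPM with both factors and overlapped 1164, 938 and 1038 CPM at baseline. Ccr2 was lost when any 1 of transgenic high-fat replicates 1 and 3 and wild-type control replicates 2 and 3 was left out (adjusted p up to 0.0652). Mpeg1 was lost in 9 of the 12 fits without 1 library, all but those without transgenic high-fat replicate 2 and wild-type high-fat replicates 1 and 3 (up to 0.153). The 6 genes of the phagocyte NADPH oxidase, which makes superoxide, all had a positive change (median 0.55). Their sum was 128.6 to 163.5 CPM with both factors, against 103.6 to 111.5 CPM at baseline. The sums did not overlap, and 13.1% of single genes tested also lay above baseline without overlap. Of the 6, Rac2 (0.63, adjusted p = 0.04) and Ncf4 (0.86, adjusted p = 0.0496) rose, but Rac2 was called in 3 and Ncf4 in 1 of the 12 fits without 1 library (up to 0.149). Of 18 genes of lipid-associated macrophages 1 rose and 0 fell (median 0.18), against 2.60% of all genes called higher. The rise was Itgax, the integrin CD11c of macrophages and dendritic cells, with 9.74, 6.38 and 9.02 CPM with both factors, against 2.76, 2.39 and 2.08 CPM at baseline (log2 1.80, adjusted p = 0.02). Itgax was lost in 5 of the 12 fits, those without transgenic high-fat replicate 1 or 3 or any 1 wild-type control library (up to 0.0656), and the diet alone gave 5.85 to 16.5 CPM. Of the 18 changes 11 were positive and 7 negative, and DESeq2 called 2 genes higher and 1 lower. Trem2 was at -0.89 (adjusted p = 0.153) and Cd63 at -0.52 (adjusted p = 0.0506), and neither passed by edgeR. The sum of those 18 genes was 16290 to 20380 CPM with both factors, against 13570 to 15410 CPM at baseline. Lpl, the lipoprotein lipase that adipocytes also make, held most of it, at 11890 to 15730 CPM with both factors and 8801 to 9886 CPM at baseline (log2 0.54, adjusted p = 0.0663).

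Of the pathway to which the transgene's product belongs, 3 of 22 TGF-beta ligands, receptors and Smads rose and 0 fell by edgeR (median 0.12). The rises were Tgfb1, Nrros and Lrrc32, against 2.60% of all genes called higher. DESeq2 called 5 of the 22 higher and 2 lower, and limma-voom called 4 higher and 0 lower. Lrrc32, the other tether of latent TGF-b, had 36.3, 45.7 and 39.9 CPM with both factors and 27.1, 25.8 and 28.7 CPM at baseline (log2 0.58, adjusted p = 0.0392), with 56.3, 38.7 and 44.7 CPM under the transgene alone. It was called in 4 of the 12 fits without 1 library, and lost without any of the 6 libraries compared or wild-type high-fat replicate 1 or 3 (up to 0.116). Of 21 TGF-beta target genes 1 rose, Col1a1, and 0 fell by edgeR (median 0.14), against 2.60% of all genes called higher. DESeq2 called 2 of the 21 higher and 1 lower, and limma-voom called 1 higher and 1 lower. Ccn2 (1.60) did not pass by edgeR.

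Mesothelial genes were lower with both factors. All 17 tested had a negative change, 9 fell and 0 rose, against 2.11% of genes called lower, and the median was -1.52. Their summed level was 464, 602 and 248 CPM in transgenic high-fat libraries, against 1272, 911 and 1388 CPM in wild-type controls. With the diet alone it was 613, 619 and 718 CPM, above every library with both factors, and with the transgene alone 1009 to 1299 CPM. Muc16 (chr9:18495445-18674821), the mesothelial surface mucin, had 19.4, 20.2 and 9.17 CPM with both factors, against 76.9, 48.5 and 92.0 CPM at baseline, 4.46-fold lower (log2 -2.16, SE 0.33, adjusted p = 0.0076). Rspo1, an enhancer of Wnt signalling, was 2.86-fold lower (adjusted p = 0.00734). Both were called in each of the 12 fits without 1 library. Upk3b (-1.93) and Nkain4 (-1.82), further mesothelial markers, were lost without wild-type control replicate 1 or replicate 1 of the transgenic high-fat group (highest adjusted p 0.0555 for Upk3b and 0.0679 for Nkain4). Without wild-type control replicate 1, 2 of the 17 were called lower. How much mesothelium each dissection took is not recorded, and its part in these falls was not tested.

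Epithelial markers had lower levels beside the mesothelial falls, although 1 of 8 passed, and 2 of the 8, Krt8 and Krt18, also stand in the mesothelial list. The 8 epithelial genes summed to 12.7 to 15.8 CPM with both factors, against 95.7, 22.9 and 43.0 CPM in wild-type control replicates 1 to 3. Of single genes tested, 13.1% also lay below baseline without overlap. All 8 had a negative change, of which Cldn3 (-2.29) fell, against 2.11% of all genes called lower. DESeq2 called 2 of the 8 lower and limma-voom 0. Cldn3 was lost without wild-type control replicate 1 and when any 1 of the 6 libraries of mice on the high-fat diet was left out (highest adjusted p 0.128). Their part in the results was not tested beyond leaving out libraries. Alox15, the 12/15-lipoxygenase of eosinophils and resident macrophages, fell by 2.67, with 2.45, 2.49 and 1.45 CPM against 21.3, 10.7 and 8.65 CPM (adjusted p = 0.00722), in each of the 12 fits without 1 library. It was 1 of 3 members called lower among 10 genes of mast cells, eosinophils and innate lymphoid cells, against 2.11% of all genes. Dpp4, which marks an early adipose progenitor, fell by 1.08, with 47.4, 52.2 and 33.3 CPM against 102, 83.9 and 95.8 CPM, also in all 12 fits. Of 20 progenitor and fibroblast genes Dpp4 was the only fall and Col15a1 (0.78) the only rise, against 2.11% of all genes called lower and 2.60% higher. Col15a1 was lost in 9 of the 12 fits, with only those without a transgenic control library keeping it (adjusted p up to 0.122).

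**Figure D3:**
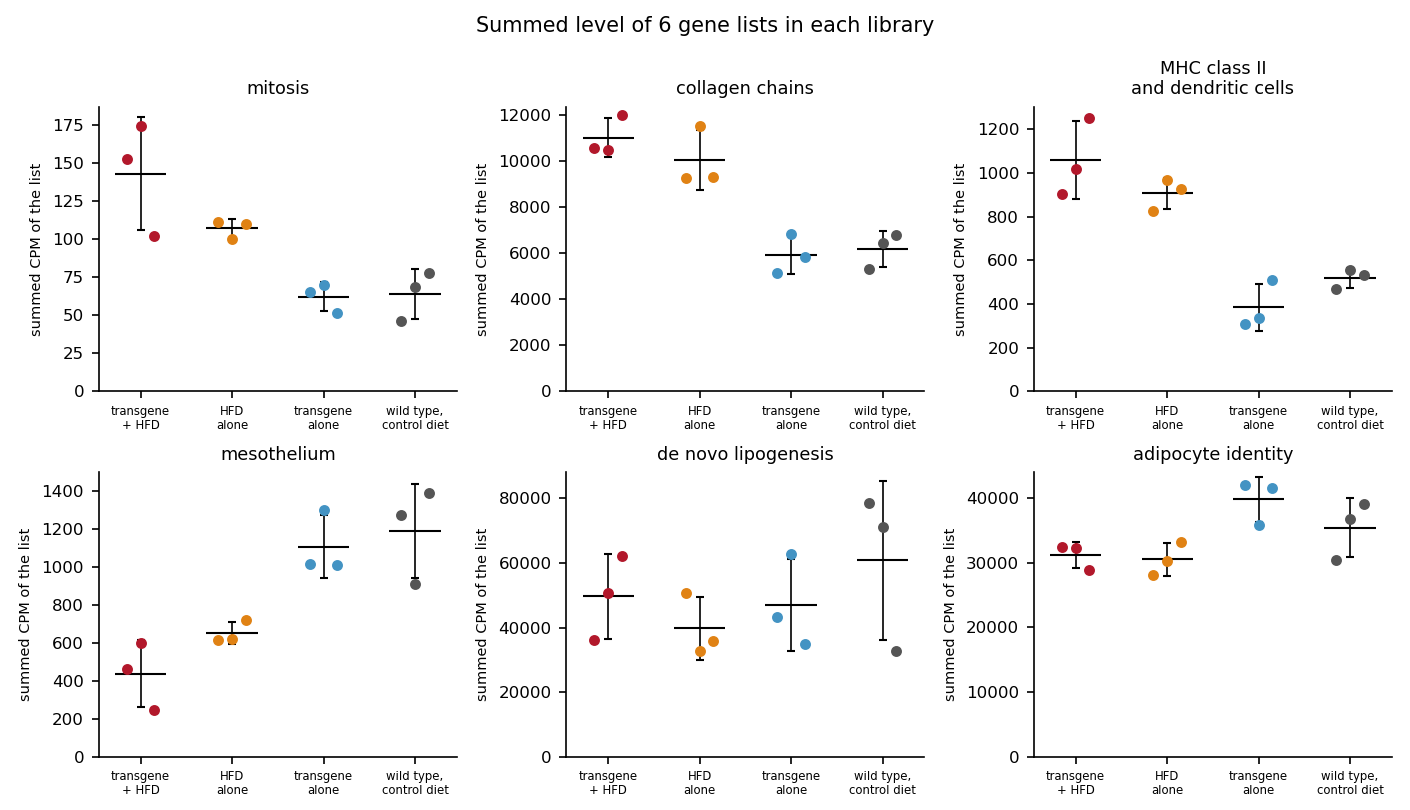
Summed CPM of 6 gene lists in each library (points), with the group mean (line) and SD (bar), for transgene plus high-fat diet, diet alone, transgene alone and baseline from left to right. Mitosis, collagen and MHC class II sums with both factors lie above every baseline library and mesothelial sums lie below, while lipogenesis and adipocyte identity overlap. In the lists that do not overlap, the sums with the diet alone also clear every baseline library on the same side. Of single genes tested, 13.1% lay above baseline without overlap and 13.1% below.

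Of 13 adipocyte identity genes 0 passed by edgeR (median 0.02), with 4 at an unadjusted p below 0.05, against 3578 of all 16550 genes. DESeq2 called 2 of the 13 lower and limma-voom 0. Adipoq, the adipokine adiponectin, had 3569, 4419 and 3070 CPM with both factors, against 4715, 5278 and 5466 CPM at baseline (log2 -0.48, adjusted p = 0.121), and Plin1, the lipid droplet coat protein, was at 0.19 (adjusted p = 0.385). Of 13 mitochondrially encoded genes 0 passed by edgeR, DESeq2 or limma-voom, with 1 at an unadjusted p below 0.05 and a median of -0.03. Among fat-handling genes 3 of 13 rose and 0 fell, against 2.60% of all genes called higher. The rises were Angptl4 (0.87), an inhibitor of lipoprotein lipase, Vldlr (0.66), the VLDL receptor, and Acsl1 (0.76), which activates fatty acids. Angptl4 had 880, 935 and 1013 CPM, against 500, 401 and 650 CPM at baseline, and was lost without wild-type control replicate 1 or transgenic high-fat replicate 3 (adjusted p up to 0.0697). Vldlr was lost without these or transgenic high-fat replicate 1 or wild-type control replicate 3 (up to 0.101), and Acsl1 in all fits but those without transgenic control replicates 2 and 3 (up to 0.135). Pik3r1, a regulatory subunit of PI3-kinase in insulin signalling, fell by 1.17, with 89.9, 115 and 98.5 CPM against 232, 246 and 204 CPM (adjusted p = 0.00734), in each of the 12 fits. The diet alone gave -1.18.

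Most genes of fat synthesis had a negative change that did not pass. Of 19 de novo lipogenesis genes 16 were negative (median -0.77), 0 passed by edgeR and 7 had an unadjusted p below 0.05. DESeq2 and limma-voom each called 1 lower. The baseline was divided: Acly, which makes acetyl-CoA for fat synthesis, was at 285, 286 and 761.7 CPM with both factors, against 4532, 2045 and 250 CPM in wild-type controls (log2 -2.36, adjusted p = 0.12). Thrsp, a lipogenic regulator, was at 561, 498 and 574 CPM with both factors, against 3545, 2493 and 428 CPM in wild-type controls (log2 -1.99, adjusted p = 0.0557). Wild-type control replicate 3 was the low library in both, and without it 9 of the 19 were called lower.

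Among the most changed genes by size, the 15 largest rises with no overlap and at least 1 CPM ran from 2.24 to 3.71 on the log2 scale. They included Bub1, Mcm10 and Pclaf, which belong to the mitosis and DNA replication lists, together with Esco2, E2f8, Anks1b, Art2a, Gas2l2, Tph2, Serpina1a, Serpina1b, Ccdc144b, Cdkl4, Tesmin and Cpne7. Gas2l2, a protein that links actin and microtubules, had 55, 44 and 109 reads with both factors, against 9, 6 and 8 at baseline. The ratio was 9.07 (95% counting interval 5.88 to 14.6, without the spread between libraries), and Gas2l2 was called in each of the 12 fits. Anks1b was at 0.96, 0.58 and 8.18 CPM with both factors, so that 1 library held most of its reads, against 0.05, 0.30 and 0.37 CPM at baseline. It was called in 1 of the 12 fits (adjusted p up to 0.264), the one without transgenic high-fat replicate 2. Of the others, Bub1, Mcm10 and Pclaf were called in all 12 fits, E2f8 and Cdkl4 in 10, Esco2 and Art2a in 9, Tesmin in 8 and Serpina1a in 7. Tph2 was called in 5, Serpina1b and Ccdc144b in 2 and Cpne7 in 1, with adjusted p up to 0.185. Serpina1a and Serpina1b are near-identical copies, and Art2a has a close paralog, so their counts are uncertain.

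The 15 largest falls ran from -2.33 to -3.41: Zkscan16, Fgfbp1, Shisal1, Isl1, Faim2, Alox15, Gabrb1, Gprasp2, Shisa8, Padi4, Nalcn, Efcab1, Wnt2b, Inmt and Sh3rf2. Zkscan16, a zinc finger gene, had 4, 1 and 3 reads with both factors, against 23, 29 and 37 at baseline. It was 11.1-fold lower (95% counting interval 5.39 to 26.5, without the spread between libraries), and was called in each of the 12 fits. With the diet alone it was at -0.96 and with the transgene alone at -0.59, and neither passed. Isl1, a homeobox factor of visceral fat, had 0.38, 1.25 and 0.25 CPM with both factors, against 6.06, 3.45 and 3.47 CPM, and was lost without wild-type control replicate 1 or transgenic high-fat replicate 1 or 3 (adjusted p up to 0.0705). Shisal1 was lost without wild-type control replicate 1 (adjusted p = 0.0535), Nalcn, a sodium leak channel, without transgenic high-fat replicate 3 (0.0538), and the other falls apart from Alox15 and Wnt2b without 3 or more libraries.

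Whether both factors together gave more or less than their sum was tested gene by gene as a departure, the combined effect minus the diet's effect minus the transgene's. No gene departed from the sum by edgeR (0 of 16550, smallest adjusted p = 0.557), although 929 genes (5.61%) had an unadjusted p below 0.05. limma-voom called 0 and DESeq2 called 26, and without wild-type control replicate 3 edgeR called 8. The sum of the single effects, which adds the error of 3 groups, also gave 0 calls by edgeR (1513 at an unadjusted p below 0.05; 0 by limma-voom, 107 by DESeq2, and 79 by edgeR without wild-type control replicate 3). Its median SE was 0.31, against 0.18 for the combined effect, and that of the departure was 0.25. Within the high-fat diet the transgene changed 0 genes by edgeR (1114 at an unadjusted p below 0.05; 0 by limma-voom and 5 by DESeq2). Within transgenic mice the diet changed 1445 genes (8.73%), of which 892 rose (5.39%) and 553 fell (3.34%). For the diet in transgenic mice, leaving out 1 library gave 543 calls without transgenic high-fat replicate 3, 572 and 865 without transgenic control replicates 1 and 2, 912 without transgenic high-fat replicate 1, and 1070 to 1504 otherwise.

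**Figure D4:**
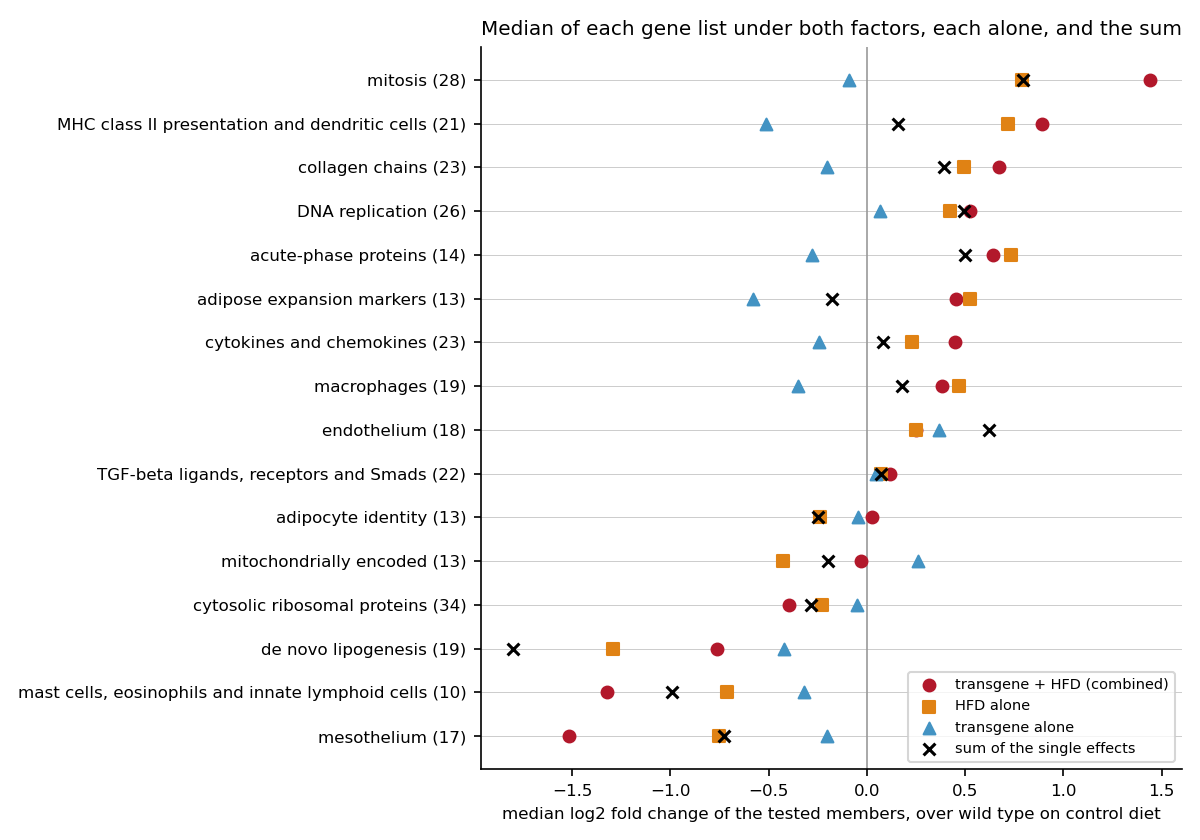
Median log2 fold change over baseline of the tested members of 16 gene lists (number of members in parentheses) for both factors (red), the diet alone (orange), the transgene alone (blue) and the sum of the single effects (cross). Mitosis and mesothelium lie further from 0 with both factors (1.44 and -1.52) than the sum (0.80 and -0.73), while de novo lipogenesis lies nearer to 0 (-0.77 against -1.80).

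At the level of lists the medians of both factors and of the sum are given side by side without a test, and they share the baseline libraries. Mitosis stood at 1.44 with both factors, 0.79 with the diet alone and -0.09 with the transgene alone, with a sum of 0.80. Mesothelium stood at -1.52 with both, -0.75 with the diet and -0.20 with the transgene, with a sum of -0.73. Replication genes had nearly the same median with both factors (0.52) as in the sum (0.49), and so had TGF-beta ligands, receptors and Smads (0.12 and 0.07). MHC class II genes stood at 0.89 with both, 0.72 with the diet and -0.51 with the transgene, and the sum was 0.16. Markers of adipose expansion, genes that track fat mass, stood at 0.46 with both, 0.53 with the diet and -0.58 with the transgene, with a sum of -0.18. In these last groups the transgene's change was negative on control chow and the level with both factors was close to that of the diet alone. The median departure over all genes was 0.01.

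The 10 genes with the smallest p for a departure were Fgf13, Pcp4l1, S100b, Tmem45b, Cnr1, H2-DMa, Jph2, Islr2, Masp1 and Pkn3, each with an adjusted p of 0.557. Since these 10 were picked by that p, their unadjusted 95% intervals exclude 0 through the choice, and the sizes may be overstated. Fgf13, a non-secreted FGF homologue and an expansion marker, had 83.6, 105 and 98.0 CPM in transgenic high-fat libraries, 110, 82.6 and 75.7 CPM in wild-type high-fat libraries, 21.8, 21.1 and 22.2 CPM in transgenic controls and 46.3, 40.9 and 54.7 CPM in wild-type controls. It was lower with the transgene alone (log2 -1.12, adjusted p = 0.0315), and the groups on high-fat diet overlapped. Like all calls of the transgene alone, that of Npr3 below included, this call was lost without transgenic control replicate 1. With both factors Fgf13 rose by 1.01 (adjusted p = 0.0074, called in each of the 12 fits), against a sum of -0.20, so the departure was 1.22 (95% interval 0.73 to 1.70). Npr3, the natriuretic peptide clearance receptor, was lower with the transgene alone in the same way (-0.93, adjusted p = 0.0315), at 0.39 with both factors (adjusted p = 0.0971), and departed by 0.79 (0.38 to 1.20, adjusted p = 0.618). Lep, the satiety hormone leptin, had 1644, 1857 and 3475 CPM with both factors, 2778, 2124 and 2005 CPM with the diet alone, 849, 762.0 and 623 CPM with the transgene alone and 1319, 1991 and 1482 CPM at baseline. Its departure was 1.12 (0.25 to 1.99), and neither this (adjusted p = 0.781) nor the transgene's own change (-1.10, adjusted p = 0.185) passed.

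Other genes picked by the p of the departure lay below the sum, again without passing the adjusted test. Pcp4l1, a homologue of the calmodulin regulator Pcp4, had 2.21, 2.11 and 2.39 CPM with both factors, 2.69, 1.495 and 4.97 CPM with the diet alone, 10.7, 10.7 and 12.8 CPM with the transgene alone and 2.76, 1.27 and 1.30 CPM at baseline. It rose with the transgene alone (2.68, adjusted p = 0.0459) and was at 0.33 with both factors, a departure of -3.12 (-4.39 to -1.86). Jph2, a junctional protein best known from heart and skeletal muscle, had 2.88, 4.65 and 3.04 CPM with both factors and 10.4, 7.17 and 8.54 CPM with the transgene alone, and departed by -2.06 (-3.02 to -1.09). Cnr1, the cannabinoid receptor CB1, was higher with the diet alone (1.15, adjusted p = 0.0238) and at 0.88 with the transgene alone, and with both factors it was higher by 0.76 (adjusted p = 0.0348), against a sum of 2.03. Pkn3, a protein kinase, was higher with the transgene alone (0.88, adjusted p = 0.0315) and with both (0.55, adjusted p = 0.0268). The calls of Pcp4l1 and Pkn3 with the transgene alone were lost without transgenic control replicate 1. That of Cnr1 with the diet alone was lost without wild-type high-fat replicate 2. The combined calls of Cnr1 and Pkn3 were lost without any wild-type control library or transgenic high-fat replicates 1 or 3 (adjusted p up to 0.124 and 0.081), and that of Cnr1 also without transgenic high-fat replicate 2 or wild-type high-fat replicates 2 or 3.

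**Figure D5:**
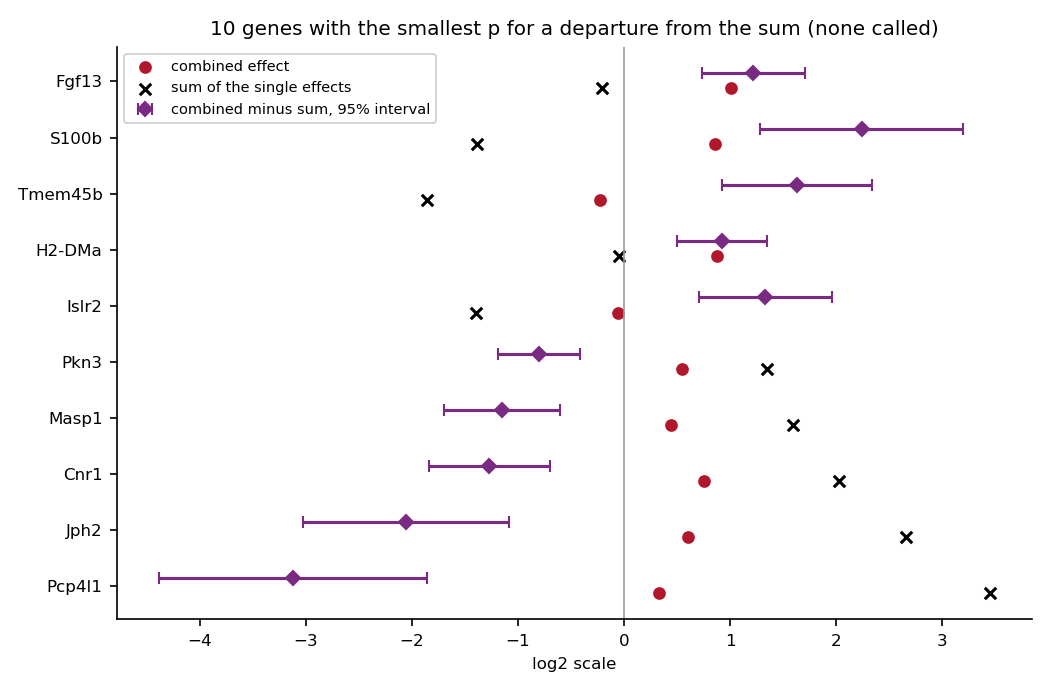
For the 10 genes with the smallest p for a departure, the combined effect (red), the sum of the single effects (cross) and the difference between them with its 95% interval (purple), all on the log2 scale. Fgf13, S100b, Tmem45b, H2-DMa and Islr2 lie above the sum and the other 5 below, and none passed the adjusted test.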

How the data were processed

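RNA of 12 visceral adipose libraries (3 in each of 4 groups; Zymo column kit and DNBseq libraries, per the labels' protocols) was analysed. The authors deposited raw read counts per gene. The submitters' processing notes name mm10, HISAT2 2.2.0, HTSeq 2.0 and DESeq2 1.32.0 without their settings. No annotation or strand setting is given in the sources used here. The 5 summary rows of each file (16.8% to 21.0% of reads) were left out. The authors' deposited comparison tables were not used.

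Counts were fitted with edgeR 4.0.16 in R 4.3.3: filterByExpr, TMM factors, a group-means model of all 12 libraries (8 residual degrees of freedom), the quasi-likelihood F test, Benjamini-Hochberg adjustment over 16550 genes and a call at an adjusted p below 0.05. The biological coefficient of variation was 20.1%. SEs are the log2 change divided by the square root of F. Within each group every pair of libraries differed by more than read counting (chi-square per degree of freedom at least 19.5). Pairs across groups were not checked, and these values do not show whether libraries came from separate mice. The code was run on simulated counts with a common dispersion and large planted changes. Those counts held no outlying libraries, so that run does not measure how reliable the calls are here. Alternatives included DESeq2, limma-voom, other scalings and filters, and each library left out.

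Members and gene lists were chosen with earlier results of these data known. Named genes are the 15 largest rises and 15 largest falls (called, at least 1 CPM, no overlap, no predicted genes), the 10 smallest departure p, the 8 smallest p, up to 4 per list and a panel of 30; some items are not reported here. Mcm6 and the list members given only with a log2 change were added after their values were seen. Coordinates and promoters are RefSeq's (GRCm38.p6, the assembly mm10 denotes). Exons of 18 of 135 genes looked up overlap another gene, Cd74, Ciita, Timp4, Col15a1, E2f8, Nkain4, Cldn3, Npr3, Cdkl4 and Pkn3 among them, so their counts are less certain.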

Additional observations from a re-analysis of the deposited data

How the results depend on the processing

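All 780 combined calls kept their sign wherever they were refitted. The count was 1417 by DESeq2 (774 of the 780 among them), 264 in a fit of the 6 compared libraries alone, 490 with a replicate block, 88 without the 2 libraries rich in epithelial genes, 348 when a log2 change of at least 1 was also asked, and 95 to 777 when 1 library was left out; the share called higher was 55.1%, but 67.9% without transgenic high-fat replicate 1 and 44.8% with the size threshold. limma-voom, RLE, library totals, both other filters and leaving out the 2 libraries rich in muscle genes gave 592 to 1057. For diet alone the count (188) became 868 by DESeq2, 699 by limma-voom, 683 without a filter, 99 with the block, 32 and 23 without the epithelial-rich and muscle-rich libraries, 76 with the size threshold and 0 to 269 with 1 library left out. For transgene alone the count (6) became 252 by DESeq2, 0 with library totals, 269 without a filter, 0 in the 6 libraries alone, 0 with the block, 1 and 16 without those libraries, 2 with the size threshold and 0 to 58 with 1 left out. For the sum of single effects there were 107 by DESeq2, 113 without a filter, 1 without either pair and 0 to 79 with 1 left out. Departures numbered 26 by DESeq2, 53 without a filter, 1 without the epithelial-rich pair and 0 to 8 with 1 left out. The transgene on high-fat diet gave 5 by DESeq2, 5 without a filter and 0 with any 1 left out. For diet in transgenic mice the count (1445) became 2209 by DESeq2, 764 in its 6 libraries, 826 without the epithelial-rich pair, 646 with the size threshold and 543 to 1504 with 1 left out. Among genes reported here, 2 that did not pass changed sign: Ucp1 to -0.46 without transgenic high-fat replicate 1 (range -0.46 to 2.79 with 1 library left out) and Islr2 to 0.10 and 0.03 without transgenic high-fat or wild-type control replicate 3 (range -0.21 to 0.10). The causes were not tested. Deviations of same-numbered libraries correlated at -0.02, -0.03 and -0.11 between the combined and baseline groups and at -0.111 to 0.265 over all pairs of groups (0.12, -0.07 and 0.15 between the transgenic groups); no pair of groups had all 3 above 0.1, so the numbers were not taken as pairs. With 3 libraries a group, the depth of 20.1 to 21.3 M counts limits low genes such as Bub1 (7 baseline reads).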

Other observations

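Of 34 cytosolic ribosomal protein genes tested all had a negative combined change (median -0.40) and 4 fell, against 2.11% of all genes called lower, while 23 had an unadjusted p below 0.05 and DESeq2 called 11 lower and limma-voom 1. Among the 4 was Rps27 (-0.69, adjusted p = 0.0349). Rps27 was lost in 8 of the 12 fits that left out 1 library (adjusted p up to 0.128), and under library totals 1 of the 34 was called lower. Of 19 fatty acid oxidation genes all had a positive change (median 0.31) and 1 rose, against 2.60% of all genes called higher. It was Ehhadh (0.72, adjusted p = 0.0458), a peroxisomal enzyme of that pathway, called in 2 of those 12 fits. Of 18 endothelial genes 3 rose and 0 fell, against 2.60% of all genes called higher, among them Cdh5, the junctional cadherin of endothelium (0.77), and Tie1 (0.59), both lost without transgenic high-fat replicate 2 or 3 or wild-type control replicate 1 or 3 (adjusted p up to 0.0937). Of 20 complement genes 1 rose and 3 fell, against 2.60% of all genes called higher and 2.11% called lower. DESeq2 called 2 of the 20 higher and 5 lower, and limma-voom called 2 higher and 2 lower. The rise was Cfb (0.72), of the alternative pathway, and C1s1 (-0.71) and C2 (-1.05) were among the falls. Cfb, C1s1 and C2 were each lost without some single libraries (adjusted p up to 0.124), and Cfb and C2 share exon sequence with a read-through gene.

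Ucp1, the uncoupling protein of thermogenic fat, was at 228, 37.9 and 20.3 CPM with both factors, against 92.6, 27.7 and 0.09 CPM at baseline, so its level varied within groups by more than between them (log2 1.25, adjusted p = 0.713). The summed level of the thermogenic genes was 959, 284 and 366 CPM with both factors and 441, 381 and 133 CPM at baseline. Of 24 interferon-stimulated genes 0 passed by edgeR (6 at an unadjusted p below 0.05; 1 lower by DESeq2 and 0 by limma-voom), with a median of 0.23 with both factors, 0.34 with the diet alone and 0.31 with the transgene alone, and a sum of 0.58.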
